A study of Mus musculus with 6 samples.

Results

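The genes described here are 33 kinases, adaptors, phosphatases and ubiquitin ligases that carry the signal of the T cell receptor inward. They were named from a list of pathway genes, and all 33 were found among the 17610 genes tested. Their RNA was compared between mouse CD4+ T cells labelled as Wtap knockout (Wtap KO) and wild-type CD4+ T cells (WT), with 3 libraries in each group. Wtap belongs to the m6A writer, the complex in the nucleus that adds methyl groups to adenosines of mRNA, and receptor signalling and survival are the study's stated theme.

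The Wtap KO and WT cells were of strain C57BL/6J, and the labels give both the same treatment. They received 4-hydroxytamoxifen at 1 µM for 24 h, the step described as depleting Wtap. They were then stimulated for 40 to 48 h with anti-CD3 (1 µg/mL) and anti-CD28 (2.5 µg/mL) in Th1 medium, which held IL-12 (10 ng/mL) and anti-IL-4 (10 µg/mL). Expansion in IL-2 (200 IU/mL) followed, and cells were harvested on day 4. The RNA was thus taken days after receptor stimulation. No label used here gives the driver of Cre, whether WT cells carried it, the deleted stretch of Wtap or the age of the mice. Nor do labels tie libraries to separate animals, and p-values therefore reflect only how these 6 samples spread.

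When the receptor binds antigen, the kinase Lck phosphorylates its CD3 chains, and the kinase Zap70 docks there. Zap70 then phosphorylates the scaffolds Lat and Lcp2 (SLP-76), on which Plcg1, Vav1, Nck and Grb2 with Sos assemble. From there the signal runs to calcium, Ras, NF-kappaB and the actin cytoskeleton, while phosphatases, Csk, diacylglycerol kinases and ubiquitin ligases hold it down.

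Libraries held 32363139 to 44039467 estimated counts. CPM stands for counts scaled to library size. Kdm5d, on the Y chromosome, stood at 63.3 CPM in Wtap KO 3 and at 2.43 to 3.53 CPM in the rest. Xist, an RNA of female cells, stood at 3.81 CPM in Wtap KO 3 and at 1979.6 to 4448 CPM in the rest. Both read as if that library alone were from a male, which would leave sex unbalanced between the groups. The part of sex in the results below was not tested. Total Wtap RNA was at 117 ± 3.00 CPM in Wtap KO and 105 ± 9.99 CPM in WT (SD, n = 3 each), with an edgeR adjusted p of 0.371, so summed reads do not check the deletion. Its transcript Wtap-205 held 10.0% ± 1.10 of the gene's counts in Wtap KO and 51.3% ± 4.19 in WT. Wtap-201 held 62.5% ± 3.34 in Wtap KO and 33.7% ± 6.42 in WT, and Wtap-203 held 19.1%, 13.9% and 14.8% in Wtap KO, against 0%, 0.437% and 0% in WT. In limma's test of shares over all transcripts, Wtap-205 was called (adjusted p = 0.00683), and Wtap-201 and Wtap-203 were not (0.0522 and 0.0812). Among transcripts with at least 10% of their gene, Wtap-201 was called as well (limma adjusted p = 0.0426). These shares do not check the deletion either, since the deleted stretch is not known here. The 8 T cell markers summed to 3731 to 4401 TPM in Wtap KO and 4382 to 4972 TPM in WT, where TPM is scaled to transcript length as well. Of these 8, 2 were called lower, where 3.49% of all genes tested were. Summed markers of dendritic cells were at 45.1 to 60.4 TPM in Wtap KO and 11.8 to 37.7 TPM in WT. Of 8 tested, 3 were called higher, where 5.75% of all genes tested were. Most of the sum was Cd74, H2-Ab1, H2-Aa and Batf3, and H2-Ab1 was highest in WT 1, at 30.3 TPM. Itgax, Flt3, Xcr1, Clec9a, Zbtb46 and Siglech stayed at or below 0.356 TPM in every library. Summed markers of B cells were at 3.56 to 5.82 TPM in Wtap KO and 2.17 to 3.91 TPM in WT. Those of CD8 T cells were at 11.4 to 13.9 TPM in Wtap KO and 7.18 to 7.79 TPM in WT. The CD8 T cell sum was mostly Cd8b1, with Cd8a at 0.366 to 1.06 TPM in Wtap KO and 0.0595 to 0.49 TPM in WT. Sums overlapped between groups for NK cells, for macrophages and monocytes, and for erythroid cells and platelets. Granulocyte markers summed to 0.233 to 0.779 TPM in Wtap KO and 0.107 to 0.202 TPM in WT. Called higher were also 1 of 2 CD8 T cell markers tested and 1 of 3 macrophage and monocyte markers tested. No marker of B cells, NK cells, or erythroid cells and platelets was called. The part of these markers in the results below was not tested.

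The adaptor Nck1 alone passed the test, and it was higher in Wtap KO. In edgeR's quasi-likelihood test, with Benjamini-Hochberg adjustment over all genes and a threshold of 0.05, 1 of 33 members was higher in Wtap KO (3.03%), 0 were lower and 32 were not called. Among all genes tested, 9.23% were called, 5.75% higher and 3.49% lower. At an unadjusted p under 0.05, 5 members were higher (15.2%, against 14.0% of all genes) and 6 were lower (18.2%, against 12.2%). With the DESeq2 Wald test, Nck1 was higher (3.03%, against 8.01% of all genes), and Malt1, Themis, Itch and Ptpn2 were lower (4 members, 12.1%, against 7.24%). The libraries of the groups did not overlap in 5 members that were above WT (15.2%, against 17.2%) and 7 that were below it (21.2%, against 15.5%). Log2 fold changes ran from -0.72 to 0.62 with a median of -0.056, beside -0.001 over all genes tested and -0.041 over those with a mean of at least 10 CPM. The 95% interval of the fold lay within 1.5-fold either way for 24 members and within 2-fold for 32, with Themis the exception. In whole-culture RNA, fewer cells of a type and less RNA per cell cannot be told apart.

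**Figure D1:**
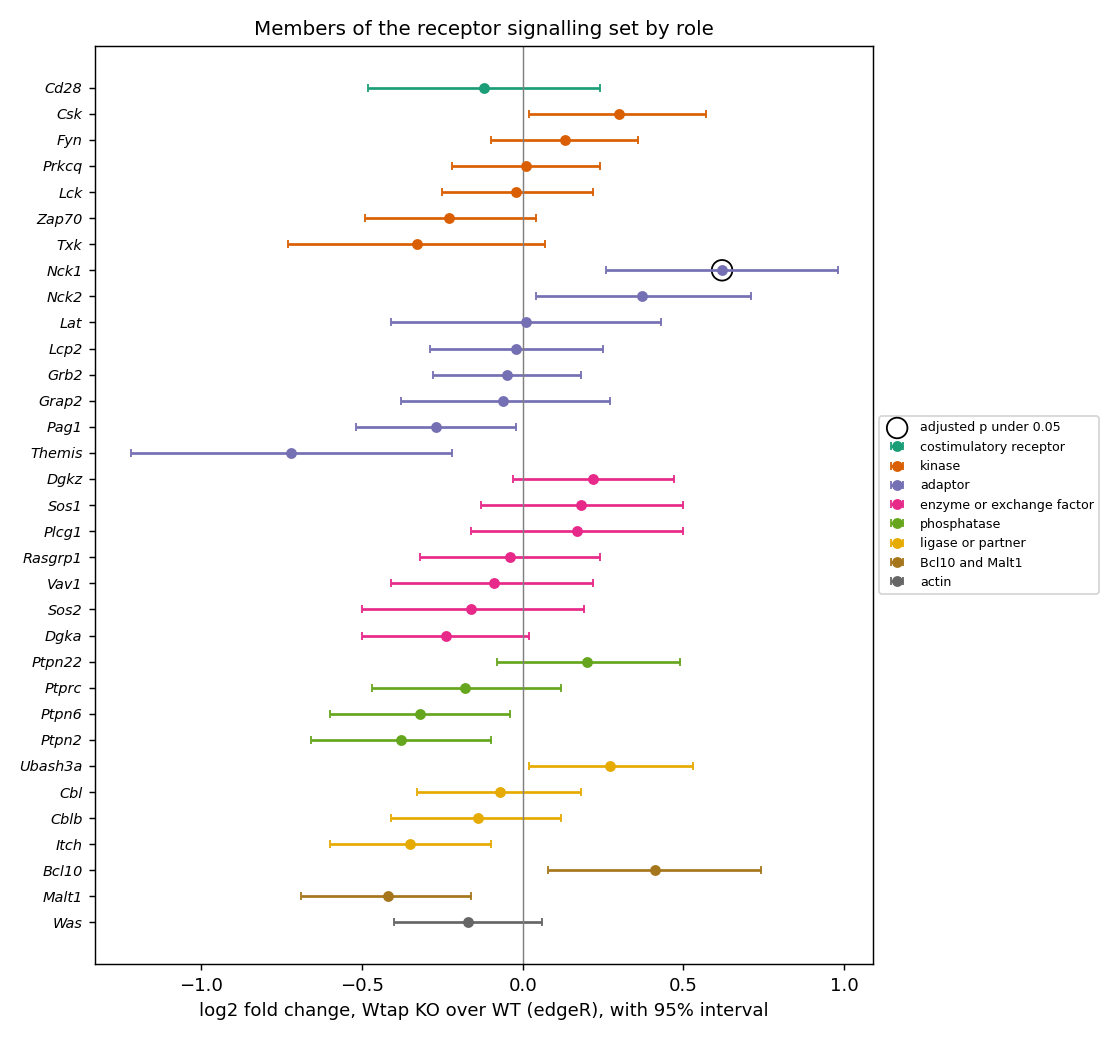
Log2 fold change of each of the 33 members, Wtap KO over WT, with its 95% interval, coloured by role and ordered within each role. Points right of 0 are higher in Wtap KO, and the ringed point is Nck1, at 0.62, the one member with an adjusted p under 0.05.

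Levels per transcript length differed widely between members, and Ptprc and Lck had the highest means in both genotypes. Ptprc was at 481 ± 91.0 TPM in Wtap KO and 533 ± 25.8 TPM in WT (SD, n = 3 each). Lck was at 344 ± 16.2 TPM in Wtap KO and 325 ± 39.7 TPM in WT. Ptpn22 came next, at 313 ± 56.4 TPM in Wtap KO and 263 ± 12.6 TPM in WT, and in Wtap KO it lay within its spread of Lck. Nck1, Nck2 and Sos1 had the lowest WT means. Nck1 was at 22.6 ± 5.69 TPM in Wtap KO and 12.3 ± 1.59 TPM in WT, where it ranked 28 and 31. Nck2 was at 11.9 ± 0.562 TPM in Wtap KO and 7.85 ± 1.55 TPM in WT. Sos1 was at 9.99 ± 1.87 TPM in Wtap KO and 8.45 ± 0.705 TPM in WT. Nck2 and Sos1 lay within their spread of each other in WT. Themis ranked 12 in Wtap KO and 5 in WT by its means, at 112 ± 5.13 TPM in Wtap KO and 175 ± 62.7 TPM in WT. That WT spread took in the WT means of Cd28 (163 TPM), Lat (134 TPM) and Rasgrp1 (131 TPM), so its WT rank is loose. The spread between libraries was larger in WT for 22 of 33 members, with a median coefficient of variation of 7.71% in Wtap KO and 11.2% in WT. WT 1 was the lowest WT library for 22 members. Neither count was made over all genes tested, so neither can be called particular to these members.

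**Figure D2:**
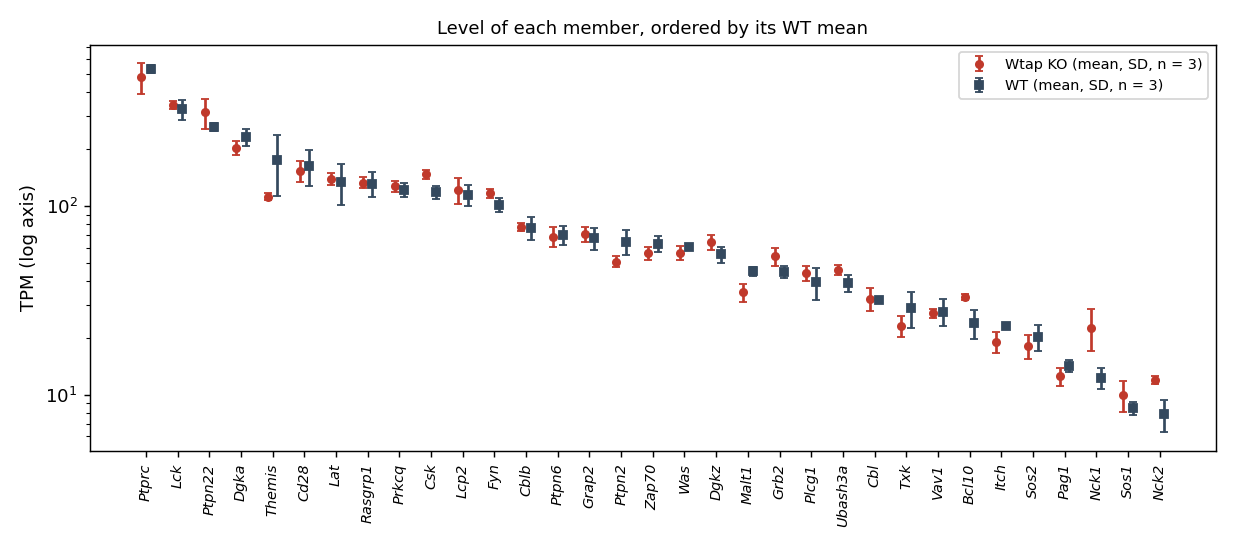
Mean TPM of each member with its SD over 3 libraries, Wtap KO left of WT, on a log axis and ordered by the WT mean. Ptprc and Lck have the highest means in both groups, and Nck1 has means of 22.6 TPM in Wtap KO and 12.3 TPM in WT.

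Nck1 and Nck2 are adaptors of SH2 and SH3 domains that tie tyrosine-phosphorylated SLP-76 to regulators of actin. Nck1 (ENSMUSG00000032475, GRCm38 chromosome 9, 100492293 to 100546134, minus strand) had 36.7, 42.8 and 55.5 CPM in Wtap KO, against 30.5, 27.7 and 29.7 CPM in WT. Every Wtap KO library lay above every WT library, and library 3 of Wtap KO was the highest. Nck1 rose 1.54-fold (log2 fold change 0.62 ± 0.16 SE, edgeR adjusted p = 0.0426, n = 3 each). The call was lost without any 1 Wtap KO library, WT 2 or WT 3, where the adjusted p from edgeR reached 0.142, and the log2 fold change without Wtap KO 3 was 0.44. Nck2 had 20.7, 20.9 and 20.9 CPM in Wtap KO, against 13.9, 15.1 and 19.3 CPM in WT. Its groups did not overlap either, but it did not pass (log2 fold change 0.37 ± 0.15 SE, edgeR adjusted p = 0.150).

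Nck1 was read from 2 main transcripts, both protein-coding in the annotation. Nck1-201, with 3 exons and 939 coding bases, held 39.7%, 40.1% and 39.4% of the gene's counts in Wtap KO, against 27.8%, 24.0% and 36.5% in WT. Nck1-202, with 4 exons and 1131 coding bases, held 57.6%, 53.3% and 55.5% in Wtap KO, against 69.9%, 72.5% and 57.6% in WT. The shares of Nck1-201 did not overlap between groups, and neither transcript passed in limma's test of shares over all transcripts (adjusted p = 0.355 and 0.392).

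None of the members at the core steps of the receptor was called. Cd3g and Cd4, which are not members, were called lower and are given below. Lck had 513, 505 and 505 CPM in Wtap KO, against 456, 546 and 540.5 CPM in WT. The Wtap KO libraries lay inside the WT range, and the 95% interval of the log2 fold change ran from -0.25 to 0.22. Zap70, which docks on phosphorylated CD3 chains, had 122, 110.2 and 106 CPM in Wtap KO, against 115, 137 and 145 CPM in WT (log2 fold change -0.23 ± 0.12 SE, edgeR adjusted p = 0.265). With an offset on GC content Zap70 was called lower, at -0.40 (edgeR adjusted p = 0.0125). Lat, the membrane scaffold, had 163, 152 and 140 CPM in Wtap KO, against 107, 160.2 and 185 CPM in WT. WT 1 was low and WT 3 high, so that the interval of Lat was wide, from -0.41 to 0.43.

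Lcp2, the cytosolic scaffold that Zap70 phosphorylates, had 355, 367 and 293 CPM in Wtap KO, against 315, 372 and 339.9 CPM in WT. The groups overlapped, with an interval from -0.29 to 0.25. Plcg1, the phospholipase that makes diacylglycerol and the calcium-releasing IP3, had 160.2, 143 and 142 CPM in Wtap KO, against 104, 143 and 149 CPM in WT. The groups overlapped, and its interval ran from -0.16 to 0.50. Exons of Plcg1 share 379 bases with Zhx3 on the opposite strand, and whether counting used strand is not stated. Cd28, the costimulatory receptor, had 548, 675 and 702 CPM in Wtap KO, against 857, 642 and 591 CPM in WT. Its groups overlapped, with an interval from -0.48 to 0.24.

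Among the other kinases none was called. Csk, which phosphorylates the inhibitory tyrosine of Lck and Fyn, had 179.6, 174 and 161 CPM in Wtap KO, against 126, 131 and 163 CPM in WT. The groups overlapped at WT 3, and the log2 fold change was 0.30 ± 0.12 (SE, edgeR adjusted p = 0.161). Fyn, a Src-family kinase beside Lck, had 259, 265 and 276 CPM in Wtap KO, against 221, 249 and 262 CPM in WT. The groups overlapped at the top WT library, and the log2 fold change was 0.13 ± 0.10 (SE, edgeR adjusted p = 0.473). Txk, a Tec-family kinase, was at 63.8 ± 8.48 CPM in Wtap KO and 80.2 ± 19.3 CPM in WT, and Prkcq, the protein kinase C of the NF-kappaB branch, at 357 ± 3.98 CPM in Wtap KO and 355 ± 35.2 CPM in WT (SD, n = 3 each).

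**Figure D3:**
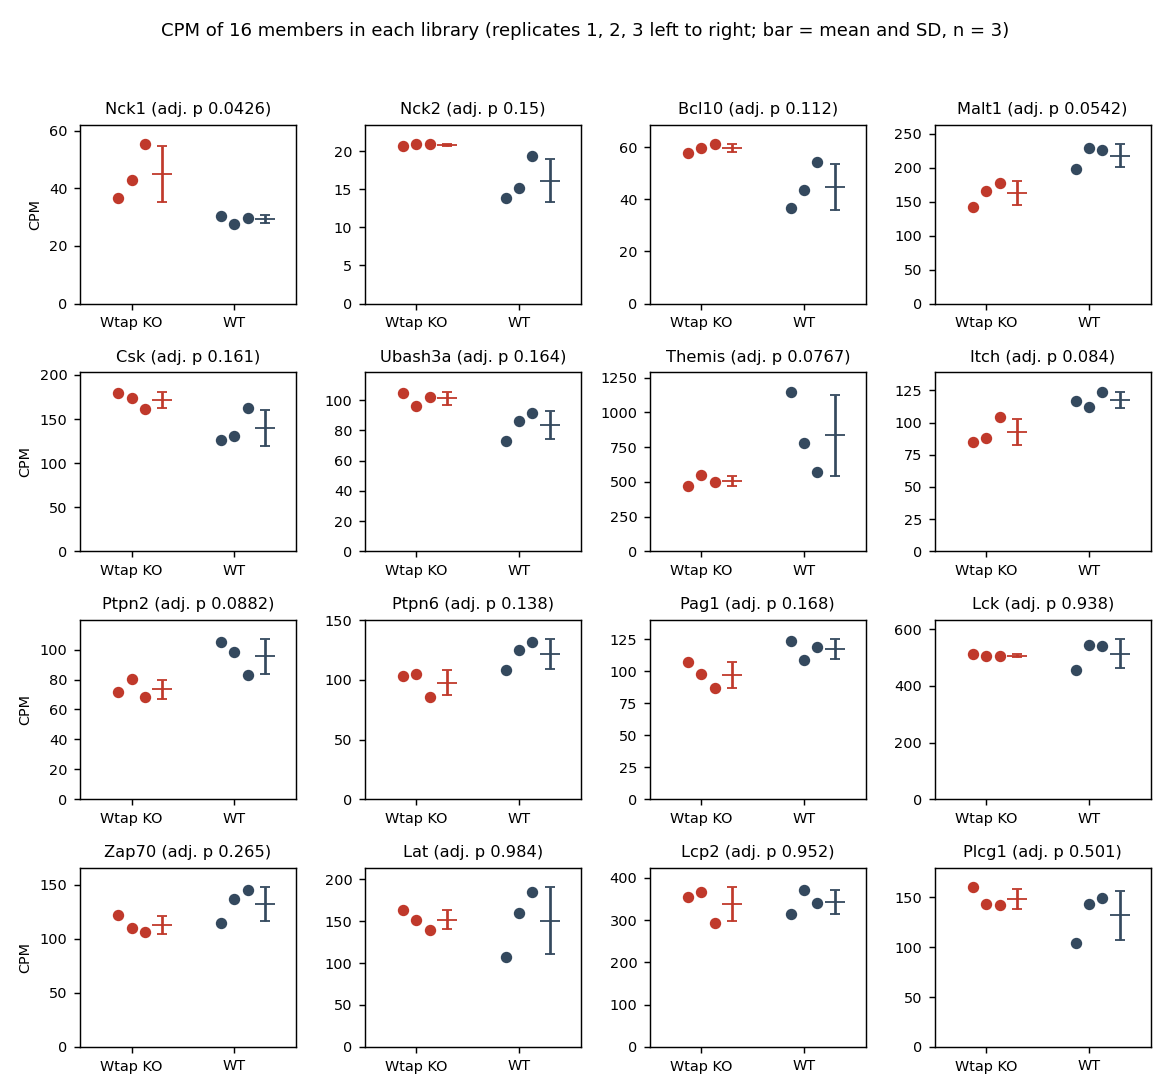
CPM of 16 members in each library, Wtap KO left and WT right, with the mean and SD of each group (n = 3) and the edgeR adjusted p. The groups do not overlap for Nck1, Nck2, Bcl10, Malt1, Ubash3a, Themis, Itch, Ptpn2, Ptpn6 and Pag1, and overlap for the other 6.

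Themis, a T lineage protein that binds Grb2 and is needed in thymic selection, had the lowest log2 fold change of the set. It had 472, 547 and 500.2 CPM in Wtap KO, against 1149.6, 779.9 and 573 CPM in WT. The Wtap KO libraries were close together and below every WT library, while the WT libraries spread widely, with WT 1 far above WT 3. The log2 fold change was -0.72 ± 0.22 (SE, edgeR adjusted p = 0.0767). Without WT 3 it was -0.93 and passed (edgeR adjusted p = 0.0128). Without WT 1, the highest library, it shrank to -0.42 and did not pass (edgeR adjusted p = 0.0725). Themis was not called when any other single library was left out, and its weakest result there was without Wtap KO 1 (edgeR adjusted p = 0.243). Pag1, a membrane anchor of Csk, had 107, 98.1 and 86.8 CPM in Wtap KO, against 124, 109 and 119 CPM in WT. Its groups did not overlap (log2 fold change -0.27 ± 0.11 SE, edgeR adjusted p = 0.168).

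Grap2 (Gads), which bridges Lat and SLP-76, had 230.5, 197 and 205 CPM in Wtap KO, against 176, 231 and 251 CPM in WT. Grb2, which brings Sos to Lat, had 95.9, 90.5 and 90.0 CPM in Wtap KO, against 89.1, 92.3 and 104 CPM in WT. Both overlapped between groups, and the sign of each log2 fold change turned with an offset on transcript length.

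Of the exchange factors and lipid enzymes none was called. Sos1 had 73.1, 73.7 and 96.7 CPM in Wtap KO, against 67.7, 66.5 and 80.2 CPM in WT. Its paralog Sos2, likewise an exchange factor for Ras, had 55.8, 64.6 and 74.4 CPM in Wtap KO, against 86.4, 66.5 and 64.1 CPM in WT. Both overlapped between groups. Dgka and Dgkz convert diacylglycerol to phosphatidic acid and so end its signal. Dgka had 592, 541 and 513 CPM in Wtap KO, against 564, 692 and 687 CPM in WT, and Dgkz had 61.8, 60.0 and 68.4 CPM in Wtap KO, against 49.7, 57.7 and 56.0 CPM in WT. Dgka overlapped between groups and Dgkz did not, with edgeR adjusted p-values of 0.228 and 0.241. Vav1, an exchange factor for Rac, was at 69.1 ± 1.92 CPM in Wtap KO and 73.7 ± 13.1 CPM in WT, and Rasgrp1, the diacylglycerol-bound exchange factor for Ras, at 645 ± 27.9 CPM in Wtap KO and 661 ± 98.2 CPM in WT (SD, n = 3 each).

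The balance within pairs of paralogs was compared as the log2 ratio of their TPM values. Dgka over Dgkz was 1.67 ± 0.20 in Wtap KO and 2.07 ± 0.12 in WT (SD, n = 3 each), and Lck over Fyn was 1.55 ± 0.04 in Wtap KO and 1.69 ± 0.07 in WT. In both pairs the groups did not overlap. Each had a two-sided exact permutation p of 0.1, the smallest that 3 against 3 libraries allow, and 0.3 after adjustment over 6 pairs. For Nck1 over Nck2, Sos1 over Sos2, Grap2 over Grb2 and Cblb over Cbl the adjusted exact p ran from 0.4 to 1.0. Cblb over Cbl differed by 0.02 between groups. These TPM values add up all transcripts of a gene, coding or not. Protein-coding transcripts held a mean of 34.9% of Dgkz counts in Wtap KO and 31.0% in WT. For Dgka they held 92.3% in Wtap KO and 89.4% in WT.

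Of the phosphatases none was called in sum. Ptpn2, which acts on Lck and on Jak kinases, had 71.5, 80.4 and 68.3 CPM in Wtap KO, against 105, 98.5 and 82.8 CPM in WT. Ptpn6 (SHP-1) had 103, 105 and 85.5 CPM in Wtap KO, against 108, 125 and 132 CPM in WT. Every Wtap KO library was below every WT library in both genes, with edgeR adjusted p-values of 0.0882 and 0.138. With an offset on GC content Ptpn6 passed, at -0.40 (edgeR adjusted p = 0.0226). Ptpn22, a partner of Csk, was at 366 ± 59.1 CPM in Wtap KO and 318 ± 7.04 CPM in WT (SD, n = 3 each).

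Ptprc (CD45) removes the inhibitory phosphate of Lck, and its sum was not called. The shares of its transcripts Ptprc-203 and Ptprc-207 did not overlap between the groups. Ptprc (ENSMUSG00000026395, GRCm38 chromosome 1, 138062861 to 138175708, minus strand) had 1507, 1641 and 2073 CPM in Wtap KO, against 2106, 1893 and 1897 CPM in WT, and the groups overlapped (log2 fold change -0.18 ± 0.13 SE, edgeR adjusted p = 0.447). CD45 is known for alternative exons near its start, called A, B and C here in their order. Naive T cells and B cells are known to keep them, and activated and memory T cells to leave them out. The exons and the junctions that tell the transcripts apart are printed next, because the difference lies in them. All are on the transcript strand of GENCODE M21 (GRCm38, chromosome 1, minus strand), with exon A at chr1:138122456-138122584, exon B at chr1:138120020-138120166 and exon C at chr1:138117754-138117894. Capitals mark GGAC in the exons and the first 15 bases of the downstream exon in the junctions.
Ptprc exon A: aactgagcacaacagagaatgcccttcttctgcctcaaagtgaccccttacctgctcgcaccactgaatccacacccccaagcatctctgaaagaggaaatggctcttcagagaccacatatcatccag
Ptprc exon B: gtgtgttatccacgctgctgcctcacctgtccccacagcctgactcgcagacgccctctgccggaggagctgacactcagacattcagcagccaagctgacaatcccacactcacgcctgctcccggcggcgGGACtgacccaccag
Ptprc exon C: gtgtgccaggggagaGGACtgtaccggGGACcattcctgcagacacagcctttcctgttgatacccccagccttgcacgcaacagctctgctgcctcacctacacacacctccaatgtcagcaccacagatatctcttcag
Ptprc-207 junction: ctacacccagtgatgAACTGAGCACAACAG
Ptprc-213 junction: ctacacccagtgatgGTGTGTTATCCACGC
Ptprc-203 junction: ctacacccagtgatgGTGCCAGCCTCACAA
Ptprc-204 junction: ctacacccagtgatgCTACCACAACGAAGC

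The junctions share their first 15 bases and differ after them. Ptprc-207 goes on into exon A and holds A, B and C, Ptprc-213 skips to exon B, Ptprc-203 skips to the exon after C, and Ptprc-204 skips that one too. Exons A, B and C hold GGAC 0, 1 and 2 times. Of 23666 internal coding exons of 129 to 165 bases, read on the transcript strand alone, 49.9% hold it and 15.4% hold it at least 2 times, so that such a match is a description only.

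Ptprc-207 made up 30.1%, 24.5% and 18.8% of Ptprc counts in Wtap KO, against 2.32%, 5.65% and 5.25% in WT. Every Wtap KO library was above every WT library by a wide margin. Its level was 93.0, 78.6 and 80.7 TPM in Wtap KO, against 9.64, 21.1 and 19.0 TPM in WT. On the log2 scale of its ratio to the rest of the gene the difference was 2.89, with an adjusted p of 0.0591 over all 23405 transcripts tested with limma, so it was not called. Among transcripts with at least 10% of their gene it was called (limma adjusted p = 0.0469; 0.757% of those transcripts were called). An edgeR fit offset by the gene's counts did not call it (adjusted p = 0.0940).

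Ptprc-203, without the 3 exons, was the main form in every library. It held 51.2%, 57.1% and 57.5% in Wtap KO, against 77.1%, 74.8% and 68.5% in WT (limma adjusted p = 0.0824), and the groups did not overlap. Ptprc-204 held 1.28%, 1.68% and 3.32% in Wtap KO, against 7.74%, 4.90% and 7.94% in WT (limma adjusted p = 0.155). The short Ptprc-213 held 2.92%, 2.83% and 2.76% in Wtap KO, against 1.34%, 1.76% and 1.95% in WT. Ptprc-212, a fragment with exon A and part of C, went the other way, at 0.0183%, 0.0102% and 0% in Wtap KO, against 0.527%, 0.542% and 0.752% in WT. The retained-intron form Ptprc-210, with exons B and C, held 9.28%, 8.48% and 10.4% in Wtap KO, against 5.86%, 7.13% and 9.17% in WT. Its groups overlapped (limma adjusted p = 0.504).

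A sum over protein-coding transcripts that hold any of the 3 exons, formed after the values were seen and so given with no test, was 27.3% ± 5.70 in Wtap KO and 6.70% ± 2.18 in WT (SD, n = 3 each). With retained-intron forms included it was 36.7% ± 5.19 in Wtap KO and 14.1% ± 3.64 in WT. As a share of protein-coding TPM, which weights short fragments more, it was 44.2% ± 4.96 in Wtap KO and 25.5% ± 4.38 in WT, a smaller contrast. The annotation used here has Ptprc-207 as its single long form with these exons, so which of the exons were kept together is not resolved. kallisto splits reads that fit several transcripts, and the tables give no error for that split. The 7 B cell markers summed to 3.56 to 5.82 TPM in Wtap KO and 2.17 to 3.91 TPM in WT, and their part in these shares was not tested.

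**Figure D4:**
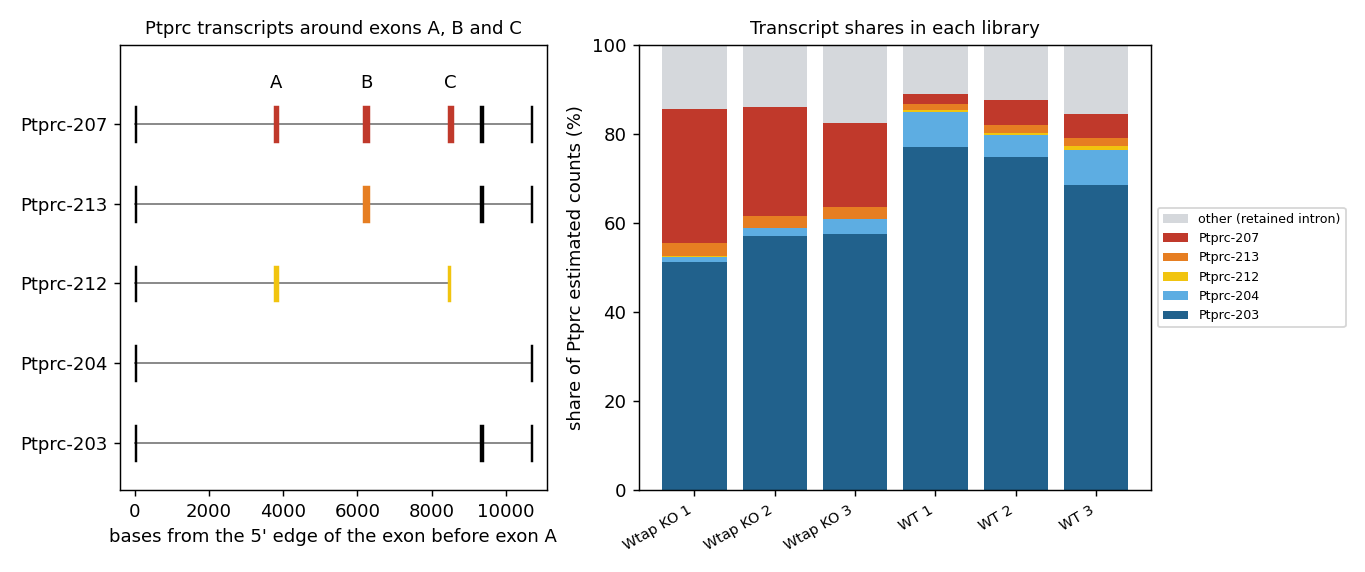
Left, exons of 5 Ptprc transcripts around the variable exons A, B and C, to scale in bases from the exon before A, with a thin outline so that short exons show. Right, the share of Ptprc counts in each transcript by library, Wtap KO left of WT, where Ptprc-207 takes 18.8% to 30.1% in Wtap KO and 2.32% to 5.65% in WT.

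Fyn has a well-known choice of its own between the exons 7A and 7B, of which 7B is known for the T cell form and 7A for the brain form. Both are printed to show the alternatives that were counted (GRCm38 chromosome 10, plus strand, GENCODE M21), 7A at chr10:39529437-39529601 and 7B at chr10:39529919-39530074. Neither holds GGAC, so neither has capitals.
Fyn exon 7A: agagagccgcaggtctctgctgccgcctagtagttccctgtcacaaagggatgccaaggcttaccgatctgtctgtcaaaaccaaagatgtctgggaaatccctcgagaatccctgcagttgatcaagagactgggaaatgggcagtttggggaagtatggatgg
Fyn exon 7B: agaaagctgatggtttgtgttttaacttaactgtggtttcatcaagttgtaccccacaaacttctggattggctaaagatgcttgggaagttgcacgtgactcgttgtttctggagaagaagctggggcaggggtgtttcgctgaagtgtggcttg

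Exon 7A was in 34.9%, 29.4% and 30.3% of Fyn counts in Wtap KO, against 31.3%, 32.3% and 29.4% in WT. Exon 7B was in 51.3%, 56.7% and 56.9% in Wtap KO, against 56.2%, 56.5% and 57.9% in WT. Both overlapped between groups. By transcript, Fyn-205 held 47.8%, 48.1% and 50.3% in Wtap KO, against 40.0%, 45.4% and 49.4% in WT (limma adjusted p = 0.636), and Fyn-201 held 3.55%, 8.6% and 6.56% in Wtap KO, against 16.2%, 11.1% and 8.39% in WT (limma adjusted p = 0.409). Fyn-206 held 13.4%, 13.6% and 12.6% in Wtap KO, against 12.1%, 11.0% and 12.6% in WT (limma adjusted p = 0.645). None was called. Fyn-201 and Fyn-205 overlapped between groups at WT 3, and Fyn-206 met at 12.6%.

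Over the set, 70 transcripts of 24 members could be tested for their share, and 0 were called with limma, where 0.607% of all transcripts tested were. At an unadjusted p under 0.05 there were 18 of the 70, in 12 members, a larger part than the 12.0% of all transcripts tested. Shares within a gene depend on each other, so the 18 are not separate results. The edgeR fit offset by gene counts called 1 (1 of 70, against 0.491% of all). That one was Ubash3a-208, at 39.0%, 39.2% and 38.8% of its gene in Wtap KO, against 28.7%, 29.6% and 29.8% in WT (adjusted p = 0.0364 with edgeR, 0.118 with limma). Its groups were tight and apart. Cblb-201 held 47.3%, 49.5% and 49.1% in Wtap KO, against 66.8%, 60.5% and 58.3% in WT (limma adjusted p = 0.136), and was named after its values were seen.

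Of the ubiquitin ligases and their partner none was called. Itch had 85.1, 88.3 and 104 CPM in Wtap KO, against 117, 112 and 124 CPM in WT. Its groups did not overlap (log2 fold change -0.35 ± 0.11 SE, edgeR adjusted p = 0.0840). Ubash3a, which binds Cbl proteins, had 105, 96.1 and 102 CPM in Wtap KO, against 73.1, 86.2 and 91.4 CPM in WT, again with no overlap (log2 fold change 0.27 ± 0.11 SE, edgeR adjusted p = 0.164). Cblb had 338, 370.2 and 372 CPM in Wtap KO, against 412, 443 and 340.1 CPM in WT. Cbl had 301, 306 and 359.7 CPM in Wtap KO, against 321, 325 and 372 CPM in WT. Cblb and Cbl overlapped between groups.

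Bcl10 and Malt1 bind each other in a complex that leads to NF-kappaB, and their values lay on opposite sides of WT. Malt1 had 143, 166 and 178 CPM in Wtap KO, against 198, 229.9 and 226 CPM in WT. Bcl10 had 57.9, 59.8 and 61.1 CPM in Wtap KO, against 36.7, 43.6 and 54.2 CPM in WT. Neither overlapped between groups, and neither passed in the main edgeR test. The log2 fold change was -0.42 ± 0.12 (SE, edgeR adjusted p = 0.0542) for Malt1 and 0.41 ± 0.14 (SE, edgeR adjusted p = 0.112) for Bcl10. DESeq2 called Malt1 (adjusted p = 0.0152). So did edgeR with no filter on low counts (adjusted p = 0.0419) and without WT 1 (adjusted p = 0.0185). Bcl10 was called by edgeR without WT 3 (adjusted p = 0.0249). When other single libraries were left out, the edgeR adjusted p reached 0.204 for Malt1 and 0.27 for Bcl10. Was, the actin regulator WASP, was at 95.2 ± 8.07 CPM in Wtap KO and 107 ± 2.35 CPM in WT (SD, n = 3 each), with no overlap and an edgeR adjusted p of 0.321.

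GGACT, a common form of the m6A consensus, was counted on the transcript strand of the main coding transcript of each gene. It was found in 32 of 33 members (97.0%), against 90.4% of 12885 tested genes, at a median of 0.98 per kilobase in members and 1.03 over those genes. Members' transcripts were longer, with a median of 3584 bases against 2869.

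Of 101 other genes of the pathway, 7 rose (6.93%), 9 fell (8.91%) and 85 were not called, where 5.75% of all genes tested were called higher and 3.49% lower. Above a mean level of 10 CPM the shares were 6.04% higher and 5.31% lower. Mapk3, a kinase at the end of the Ras branch, fell, at 36.5 ± 1.83 CPM in Wtap KO and 49.1 ± 4.21 CPM in WT (SD, n = 3 each; edgeR adjusted p = 0.0455). The small GTPases Rac1 and Cdc42, which drive actin, were at 684 ± 27.5 and 743 ± 72.6 CPM in Wtap KO, against 888 ± 15.6 and 1067 ± 107 CPM in WT. Sh2d1a (SAP), an adaptor that recruits Fyn, fell by 0.62 on the log2 scale, and Ndfip2, an activator of Itch-family ligases, fell by 0.45. Cd3g, Cd4 and Ctla4 fell as well, by 0.62, 0.52 and 0.87.

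Those that rose were of several arms. Vav2, the broadly expressed relative of Vav1, was at 12.7 ± 0.398 CPM in Wtap KO and 6.20 ± 2.02 CPM in WT (SD, n = 3 each; edgeR adjusted p = 0.0248). Traf6, a ubiquitin ligase of the NF-kappaB branch, was at 236 ± 9.16 CPM in Wtap KO and 151 ± 15.1 CPM in WT (edgeR adjusted p = 0.0102). Nfkbia, the inhibitor of NF-kappaB, was at 90.7 ± 9.37 CPM in Wtap KO and 46.6 ± 16.1 CPM in WT (edgeR adjusted p = 0.0364). Arhgef7, Dok1 and Tradd had log2 fold changes of 0.63, 0.74 and 0.58. Syk, the relative of Zap70 that B cells and myeloid cells use, was low in both, at 1.36 ± 0.116 CPM in Wtap KO and 0.397 ± 0.182 CPM in WT. Each of the 16 called genes missed the threshold without at least 1 library, and without Wtap KO 1 or Wtap KO 2 the counts were 0 higher and 1 lower.

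**Figure D5:**
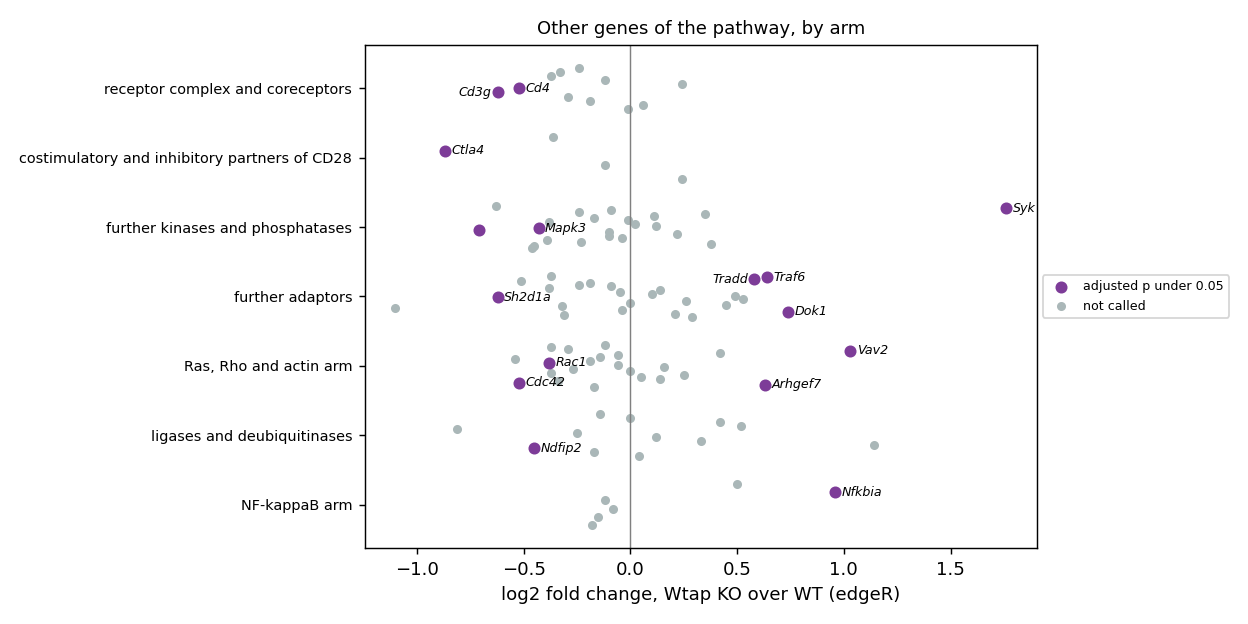
Log2 fold change, Wtap KO over WT, of 101 other pathway genes by arm, with called genes marked, most of them by name; height within an arm only separates points. The 16 called genes lie on both sides of 0, with 7 higher and 9 lower.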

How the data were processed

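Per the submitters' processing notes, the authors used kallisto 0.44.0 and DESeq2 with GRCm38 (mm10). They deposited, for each of 6 libraries (paired 50 bp reads per the labels), estimated counts and TPM per transcript. The deposited length and effective length columns are in bases. Index annotation and strand setting: not given in the sources used here. Transcripts were matched by identifier to GENCODE M21 (99.15% of 142647), and the estimated counts of a gene's transcripts were added up and rounded.

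Groups and replicate numbers came from sample titles. Genes were tested with edgeR 4.0.16 (R 4.3.3; TMM, filterByExpr, robust quasi-likelihood), with Benjamini-Hochberg adjustment over all genes and a threshold of 0.05. CPM values use TMM library sizes, and SE is the absolute log2 fold change over the root of F. Transcript shares were tested with limma 3.58.1 on log-ratios to the rest of the gene (pseudocount 0.5), in genes with a mean of at least 100 counts and transcripts with at least 5% of the gene. Paralog ratios used log2(TPM + 0.1) and exact permutation. Alternatives included DESeq2 1.42.0, offsets on length and GC content, and leaving out libraries. The tests were run on simulated data first.

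The members and lists were chosen with earlier results of these data known. Values in every library are given for members with an unadjusted p under 0.05, for paralog pairs and for Cd28, Lck, Zap70, Lat, Lcp2 and Plcg1, and for the wider list the called genes are named, except that 1 result is not reported here.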

Additional observations from a re-analysis of the deposited data

How the results depend on the processing

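The number of genes called was 1626, but 2581 with the DESeq2 Wald test, 1061 with a replicate block, 2402 without WT 1 and Wtap KO 3 together and 361 to 2282 when single libraries were left out. Calls were 62.2% higher ones in the main test, 52.5% with DESeq2 and 73.8% for limma on TPM. Members called higher were 0 with the block and 0 to 3 without single libraries; the 3, without WT 3, were Bcl10, Csk and Nck2. Members called lower were 4 with DESeq2, 1 with no filter on low counts, 2 with the GC offset, 0 to 2 without single libraries, and 2 without WT 1 and Wtap KO 3 together, a setting chosen after seeing the data. Wider pathway genes called higher were 12 with DESeq2 and 0 to 11 without single libraries. Those called lower were 14 with DESeq2, 3 with the block, 15 with the GC offset, 4 with limma on TPM, 19 without WT 1 and Wtap KO 3, and 1 to 15 without single libraries. Member transcripts called were 1 with the edgeR offset fit and 1 at a share of at least 10%. The cause was not tested.

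Signs turned in members that were not called and lay near 0. With the length offset the log2 fold change was 0.02 for Lck, -0.01 for Lat, 0.03 for Lcp2, 0.01 for Grap2 and 0.21 for Grb2. With the GC offset it was 0.01 for Cd28, Lcp2 and Rasgrp1 and -0.12 for Lat. With limma on TPM it was 0.09 for Lck, 0.08 for Lcp2 and Grap2, 0.26 for Grb2, 0.03 for Rasgrp1 and 0.02 for Cblb. Without WT 1 and Wtap KO 3 it was -0.08 for Prkcq, -0.13 for Lat and 0.02 for Lcp2. Without single libraries it ran from -0.22 to 0.05 for Cd28, -0.10 to 0.03 for Lck, -0.07 to 0.06 for Prkcq, -0.19 to 0.18 for Lat, -0.08 to 0.08 for Lcp2, -0.19 to 0.05 for Grap2, -0.10 to 0.02 for Grb2, -0.23 to 0.01 for Vav1 and -0.15 to 0.06 for Rasgrp1. The log2 share ratio of Fyn-202 ran from -0.08 to 0.10.

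Libraries of the same number deviated from their group means with correlations of -0.325, 0.07 and 0.144 over 8296 genes. Wtap KO 1 correlated best with WT 2 (0.337), Wtap KO 2 with WT 1 (0.366) and Wtap KO 3 with WT 3 (0.144). Deviations from means of 3 libraries cannot show whether samples were paired, so whether the numbers pair them is not known. With the replicate block the edgeR adjusted p of Nck1 was 0.0654.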
